A study of Mus musculus with 6 samples.

Results

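The genes described here encode the machinery that folds, checks, exports and destroys secreted proteins in the endoplasmic reticulum (ER). They are the 150 genes of 14882 in the deposited expression table whose KEGG annotation names protein processing in the ER. P4hb was left out by the selection rule. RNA was measured in cartilage of mice of the C57BL/6 strain aged 7 days, from the hypertrophic zone at the upper end of the tibia, where chondrocytes of the growth plate enlarge and their matrix mineralises. The 3 Adamts17-/- libraries came from mice that lack both copies of Adamts17, a secreted metalloprotease gene, and the 3 WT libraries from mice with the wild-type gene, described as littermates. The zone was cut from frozen sections by laser microdissection and its messenger RNA was linearly amplified before sequencing. The labels do not say that each library is a separate animal, nor which part of the gene was removed, so the p-values below reflect only the spread among 6 libraries, which may be technical. The question here is whether the secretory machinery of this zone differs when Adamts17 is missing. Values per library are given in the order of replicates 1, 2 and 3 within each group.

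Secreted proteins enter the ER through the SEC61 channel, receive sugars from the oligosaccharyltransferase, and are folded by chaperones of the HSP70, HSP90, lectin and disulfide isomerase kinds. Folded cargo leaves in COPII-coated vesicles, and misfolded cargo is drawn back to the cytosol, tagged with ubiquitin and degraded. The sensors IRE1, PERK and ATF6 detect unfolded protein and raise the output of this machinery, the unfolded protein response. Chondrocytes secrete large amounts of collagen and proteoglycan, and mutations that hold collagen X in the ER cause a skeletal dysplasia with ER stress in hypertrophic chondrocytes.

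Part of this response is written in the promoters of the genes. The ER stress response element, ERSE, is read by ATF6 together with the CCAAT-binding factor NF-Y, and reads CCAAT, 9 free bases, CCACG. A shorter form, ERSE-II, reads ATTGG, 1 free base, CCACG, and the unfolded protein response element, UPRE, was searched by the letters TGACGTGG. These letters were searched on both strands of RefSeq promoters of build GRCm38.p6, each 300 bases long with 250 bases before the gene start, which 125 of the 150 genes had. The full ERSE was found in 8 of these 125 genes (6.40%), while 37 of all 27025 genes with a promoter held it (0.137%, and 0.119% of 32851 promoters). ERSE-II was found in 2 of the 125 genes, against 12 of all genes (0.0444%), and UPRE in 6, against 193 of all genes (0.714%). No gene of the 125 held more than one kind of motif, so no 2 kinds overlapped. A match gives only the letters and was not tested as a binding site.

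The ERSE matches are shown because 7 of the 8 genes are chaperones or folding enzymes; the other is the degradation gene Syvn1. Each is written with 10 bases on either side, in the direction in which the motif reads, with the fixed motif letters in capitals.
Hspa5 (chr2:34772015-34772053, plus strand): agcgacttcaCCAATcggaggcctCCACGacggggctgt
Hsp90b1 (chr10:86705628-86705666, minus strand): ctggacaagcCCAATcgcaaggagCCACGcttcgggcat
Hsp90b1 (chr10:86705523-86705561, plus strand): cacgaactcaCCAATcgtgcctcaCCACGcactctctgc
Calr (chr8:84847065-84847103, plus strand): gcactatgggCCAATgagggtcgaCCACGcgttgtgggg
Canx (chr11:50325790-50325828, minus strand): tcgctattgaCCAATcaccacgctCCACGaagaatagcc
Pdia6 (chr12:17266481-17266519, plus strand): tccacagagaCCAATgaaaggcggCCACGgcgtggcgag
Dnajc3 (chr14:118937817-118937855, plus strand): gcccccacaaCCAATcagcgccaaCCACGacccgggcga
Ero1lb (chr13:12565672-12565710, minus strand): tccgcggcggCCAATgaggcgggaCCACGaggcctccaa
Syvn1 (chr19:6046522-6046560, plus strand): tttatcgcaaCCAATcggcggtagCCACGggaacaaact

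The ERSE-II matches belong to a chaperone partner and to a degradation factor and are written in the same way.
Dnajb11 (chr16:22857842-22857872, plus strand): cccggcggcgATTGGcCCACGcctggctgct
Herpud1 (chr8:94386367-94386397, plus strand): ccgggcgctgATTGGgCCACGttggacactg

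The 250 bases before the start of Hspa5 show the place of its single exact ERSE match ahead of the start, again in capitals.
Hspa5 (chr2:34771840-34772089, plus strand): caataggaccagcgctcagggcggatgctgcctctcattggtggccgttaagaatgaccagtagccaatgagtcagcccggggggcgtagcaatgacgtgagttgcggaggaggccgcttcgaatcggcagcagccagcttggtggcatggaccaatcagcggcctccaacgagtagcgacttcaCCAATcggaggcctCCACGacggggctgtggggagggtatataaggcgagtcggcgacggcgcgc

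**Figure D1:**
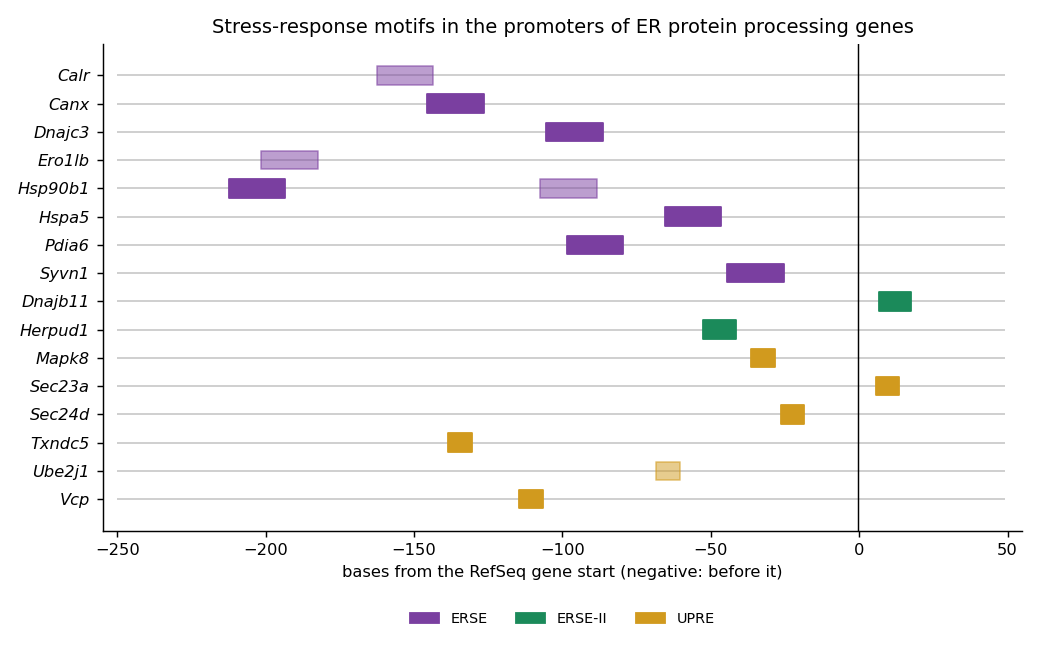
Positions of exact ERSE, ERSE-II and UPRE matches in the promoters of the 16 genes that hold one. The x axis gives bases from the RefSeq gene start, and pale bars mark matches on the strand opposite to the gene. Hsp90b1 holds 2 ERSE matches, the nearest ERSE to a gene start is that of Syvn1, at 44 to 26 bases before it, and the matches of Dnajb11 and Sec23a lie after the start.

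The libraries were shallow and uneven, which bears on every value below. Levels are RPKM, reads per kilobase of transcript scaled to library size, as the values of the deposited table were read (the unit is inferred from the values), and depth was estimated from the smallest steps of the values. Read equivalents on listed genes numbered between 595987 and 2688276 in the Adamts17-/- libraries and between 722121 and 1662665 in the WT libraries, with replicate 2 deepest in Adamts17-/- and replicate 1 deepest in WT. The ER protein processing genes took 0.997% to 1.26% of them in Adamts17-/- and 0.874% to 1.66% in WT. Between 7 and 25 of the 150 genes were listed at 0 in the Adamts17-/- libraries, and between 3 and 22 in the WT libraries. The targeted gene could not check the labels, since Adamts17 was at 0.00850, 0.0870 and 0.0260 RPKM in Adamts17-/- and 0.246, 0.0407 and 0.397 RPKM in WT, near the floor throughout. Col10a1, the collagen that defines hypertrophic cartilage, was above 0 in all 6 libraries, and the 8 hypertrophic markers summed to 3219 to 5783 RPKM in Adamts17-/- and 4304 to 14741 RPKM in WT. Col10a1 alone made up 13347 of the 14741 RPKM, in WT replicate 2. By mean log2(RPKM + 1), 4 of the 8 markers were higher in Adamts17-/- and 4 lower. The 8 general chondrocyte markers summed to 412 to 1162 RPKM in Adamts17-/- and 672 to 3182 RPKM in WT, with Matn3 at 0 in Adamts17-/- replicate 3. By mean log2(RPKM + 1) all 8 were lower in Adamts17-/-, though the 2 groups of libraries overlapped for each. Markers of other cells were present too. The 8 erythroid markers summed to 1792 to 108717 RPKM in Adamts17-/- and 1204 to 26403 RPKM in WT, with Slc4a1 at 0 in Adamts17-/- replicate 3 and Epb4.2 at 0 in WT replicate 2. Of 8 neutrophil markers the table holds 6, and they summed to 85.5 to 51383 RPKM in Adamts17-/- and 16 to 1693 RPKM in WT, with Prtn3 at 0 in all libraries but Adamts17-/- replicate 2. The 8 skeletal muscle markers summed to 285 to 498 RPKM in Adamts17-/- and 161 to 14337 RPKM in WT, with Ckm, Myh3 and Actn3 at 0 in Adamts17-/- replicate 3 and WT replicate 3. Of 7 B and plasma cell markers the table holds 4, which summed to 1.85 to 132 RPKM in Adamts17-/- and 1.78 to 26.3 RPKM in WT. The 6 osteoblast markers summed to 130 to 5268 RPKM in Adamts17-/- and 93.0 to 826 RPKM in WT. The highest erythroid, neutrophil, B and plasma cell, and osteoblast sums were in Adamts17-/- replicate 2 and the highest muscle sum in WT replicate 1, so the summary of the whole set is also given without these 2 libraries. WT replicate 2, which held the highest WT erythroid sum (26403 RPKM), stays in that summary. The part of these cells in each result below was not tested. In tissue taken in bulk, fewer cells of a type and less RNA per cell cannot be told apart.

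None of the ER protein processing genes passed the test between Adamts17-/- and WT. Of the 150 genes, 122 had at least 1 RPKM in at least 3 libraries and were tested, on log2(RPKM + 1) with limma over all 9128 such genes. With adjustment over all of these genes, 0 of the 122 were called (background 0%), and no adjusted p was below 0.999. Without adjustment, 2 had p under 0.05, Pdia6 on the lower side and Atf6b on the higher (1.64%, against a background of 2.51%, which divides into 1.14% higher and 1.37% lower). The 2 groups of libraries did not overlap for 8 of the 122 genes (6.56%, against a background of 6.63%). All 3 Adamts17-/- libraries lay above all 3 WT libraries for Bag1, Stub1, Os9 and Atf6b (background 3.09%), and below them for Sar1a, Cul1, Sec61a2 and Sec24c (background 3.54%). Atf6b reached the filter only through its Adamts17-/- libraries, so it had to differ, and its place in these counts gives no support. Stub1, Os9 and Atf6b are named here after their values were seen. These shares lie near the background.

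Higher and lower genes were mixed. A log2 fold change here is Adamts17-/- minus WT on the log2(RPKM + 1) scale, which understates the change of low genes. It was above 0 for 68 genes and below 0 for 54 (55.7% above, against 52.8% of all genes), with a median of 0.12, against 0.077 for all genes. Upper-quartile scaling turned the split to 53 above and 71 below, and moved the median of all genes by -0.15, with a median of -0.066 for the ER genes. Without Adamts17-/- replicate 2 the ER genes had 44 fold changes above 0 and 62 below (median -0.28). Without both that library and WT replicate 1 there were 39 above and 44 below (median -0.26), with WT replicate 2, high in erythroid markers, still included. Fewer ER genes passed the filter in these fits. Their medians are not set beside those of all genes in the same fits, so a shift shared with all genes cannot be told apart. The median standard error of a fold change was 1.54 on the log2 scale, close to the 1.48 of all genes. The mean log2(RPKM + 1) of the 122 genes was 3.12, 4.28 and 3.02 in Adamts17-/- replicates 1, 2 and 3, against 3.89, 2.84 and 3.79 in WT replicates 1, 2 and 3. The groups overlapped, and the deepest library of each group had the highest mean of its group. A single library was the highest for many genes at once, Adamts17-/- replicate 2 for 44 of the 122 genes (36.1%, against 26.7% of all genes tested) and WT replicate 3 for 36 (29.5%, against 20%).

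**Figure D2:**
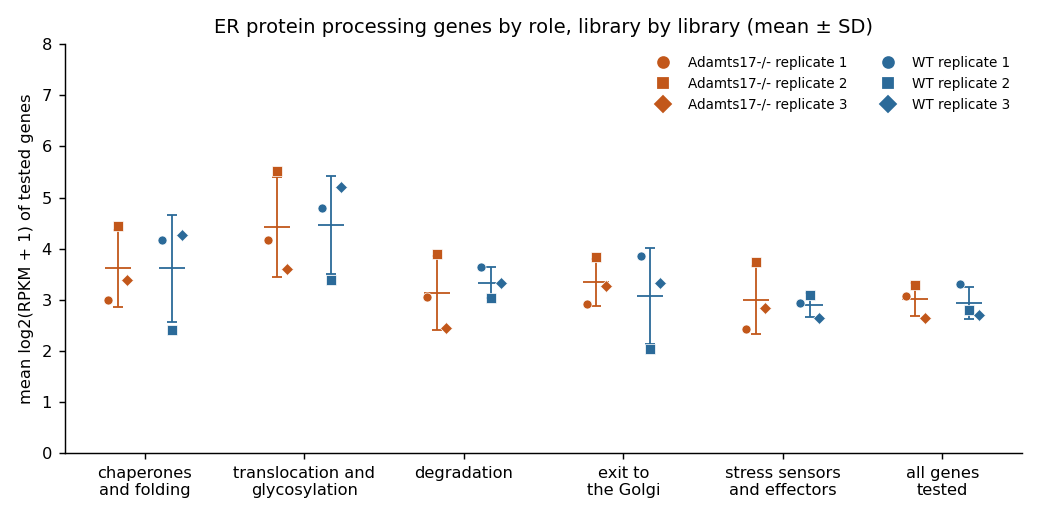
Mean log2(RPKM + 1) of the tested genes of each role class, and of all genes tested, in each library. Points are libraries, with a marker shape for each replicate number, and bars are the mean ± SD over 3 libraries. In each class the Adamts17-/- and WT libraries overlap, and Adamts17-/- replicate 2 is the highest Adamts17-/- library.

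**Figure D3:**
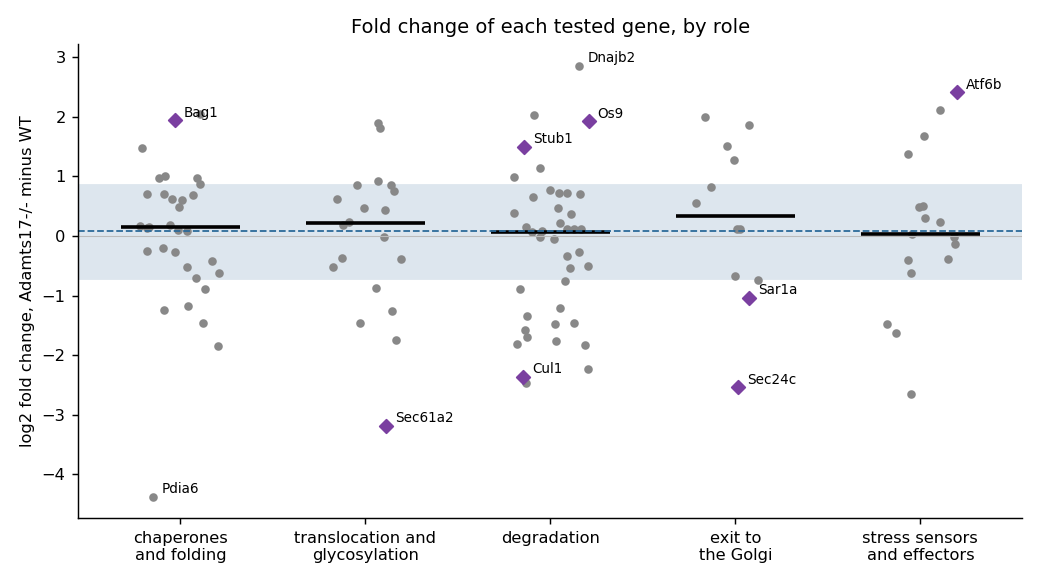
Log2 fold change, Adamts17-/- minus WT, of each of the 122 tested genes by role class. Black lines are class medians, the dashed line and shaded band are the median (0.077) and the quartiles of all genes tested, and diamonds mark the 8 genes whose groups did not overlap. The class medians lie between 0.026 and 0.34, inside the band.

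Chaperones and folding enzymes, 41 genes of which 32 were tested, had 19 fold changes above 0 and 13 below, with a median of 0.15. With upper-quartile scaling the median was -0.0054, while library weights gave -0.60, leaving out Adamts17-/- replicate 2 gave -0.51 and leaving out WT replicate 3 gave 0.56. In the ER lumen the most abundant were Hsp90b1, the ER form of HSP90, and Hspa5, the HSP70 known as BiP, which also binds the stress sensors. Hspa5 was at 17.5, 243 and 72.5 RPKM in the Adamts17-/- libraries, against 92.0, 27.3 and 375 RPKM in the WT libraries (log2 fold change -0.53 ± 1.28, SE). Hsp90b1 was at 32.5, 135 and 51.1 RPKM in the Adamts17-/- libraries, against 109.6, 21.4 and 610.4 RPKM in the WT libraries (-0.89 ± 1.28). For both genes WT replicate 3 was the highest library and Adamts17-/- replicate 2 the second, while Adamts17-/- replicate 1 and WT replicate 2 were the lowest, so the groups overlapped. With 1 library left out the fold change of Hspa5 ran from -1.43 to 0.43 and that of Hsp90b1 from -2.07 to 0.32, and the sign of both turned without WT replicate 3. The sign of Hspa5 turned without Adamts17-/- replicate 1 as well.

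The lectin chaperones calreticulin and calnexin hold glycoproteins that still carry a glucose. Calr was at 54.1, 118 and 141 RPKM in the Adamts17-/- libraries, against 84.7, 20.6 and 186 RPKM in the WT libraries (0.48 ± 1.22). Canx was at 25, 60.0 and 18.8 RPKM in the Adamts17-/- libraries, against 44.8, 7.43 and 21.1 RPKM in the WT libraries (0.63 ± 1.37). WT replicate 2 was the lowest library for both, and the groups overlapped. Hyou1, a large HSP70 that exchanges the nucleotide of BiP, was low, at 1.28, 1.29 and 16.2 RPKM in the Adamts17-/- libraries, against 3.32, 1.73 and 5.26 RPKM in the WT libraries (0.093 ± 1.51). Dnajb11, a J-domain partner of BiP whose promoter holds an ERSE-II, was at 0.932, 0.162 and 3.92 RPKM in the Adamts17-/- libraries, against 11.8, 0.806 and 8.84 RPKM in the WT libraries (-1.46 ± 1.41). The lowest value of Dnajb11 was in Adamts17-/- replicate 2 and the highest in WT replicate 1.

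The branch of disulfide exchange held the lowest p of the set. Pdia6 (Entrez gene 71853, chromosome 12, 17266595 to 17284770, plus strand), a protein disulfide isomerase that also binds IRE1, was at 0.458, 48.7 and 0 RPKM in the Adamts17-/- libraries, against 88.9, 27.6 and 251 RPKM in the WT libraries. Adamts17-/- replicate 2 lay between the WT libraries, while the other Adamts17-/- libraries were at or near 0. The log2 fold change of Pdia6 was -4.38 ± 1.56 (limma, SE; 3 libraries per group; adjusted p = 0.999, unadjusted p = 0.00846). It stayed below 0 whichever library was left out, between -6.16 and -3.35. Pdia6 was named for its small p, so this range gives no added support. The related isomerase Pdia3, which works with the lectin chaperones, was at 3.35, 13.0 and 0 RPKM in the Adamts17-/- libraries, against 6.11, 0 and 30.2 RPKM in the WT libraries (-0.62 ± 1.65). Its groups overlapped, with a 0 in each. Over the 6 tested genes of disulfide exchange, 3 fold changes were above 0 and 3 below. Dnajc10, a J-domain protein that reduces disulfides of misfolded clients, was at 0, 0 and 34.2 RPKM in the Adamts17-/- libraries, against 7.69, 4.43 and 33.1 RPKM in the WT libraries (-1.84 ± 1.70). It was listed at 0 in 2 Adamts17-/- libraries, while the third was the highest of all 6.

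Glycan trimming and re-glucosylation decide how long a glycoprotein stays with the lectins. Of 9 such genes 7 were tested, with 5 fold changes above 0 and 2 below. Man1c1, a Golgi mannosidase of N-glycan trimming, was at 0.131, 9.41 and 7.81 RPKM in the Adamts17-/- libraries, against 2.58, 0.135 and 0.206 RPKM in the WT libraries (1.47 ± 1.18). Adamts17-/- replicates 2 and 3 were above all WT libraries and replicate 1 was below them. Ganab, the catalytic subunit of glucosidase II, averaged 31.5 RPKM over the 6 libraries, and Uggt1, which adds a glucose back to misfolded glycoproteins, 7.71 RPKM.

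The KEGG set also holds chaperones of the cytosol, among them Hspa8, the most abundant gene of all 150. Hspa8 encodes the constitutive HSP70 and was at 349, 396 and 197 RPKM in the Adamts17-/- libraries, against 195, 140.5 and 744 RPKM in the WT libraries (0.14 ± 1.06, with the sign turned by upper-quartile scaling and by quantile normalization). Hsp90ab1, a cytosolic HSP90, was at 287, 279 and 143 RPKM in the Adamts17-/- libraries, against 177, 88.3 and 96.4 RPKM in the WT libraries (0.97 ± 1.10). Its highest 2 libraries were Adamts17-/- replicates 1 and 2, and Adamts17-/- replicate 3 lay inside the WT range. Bag1, a nucleotide exchange factor of HSP70, was at 238, 206 and 152 RPKM in the Adamts17-/- libraries, against 65.4, 17.9 and 106 RPKM in the WT libraries (1.94 ± 1.17, unadjusted p = 0.108, adjusted p = 0.999 by limma). All 3 Adamts17-/- libraries of Bag1 lay above all 3 WT libraries, so leaving out 1 library could not turn its sign. The fold change of Bag1 then lay between 1.22 and 2.47. Hspa8 and the cytosolic HSP90 genes have processed pseudogenes, and the sources used here do not say how reads with several positions were counted, so their levels are uncertain.

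**Figure D4:**
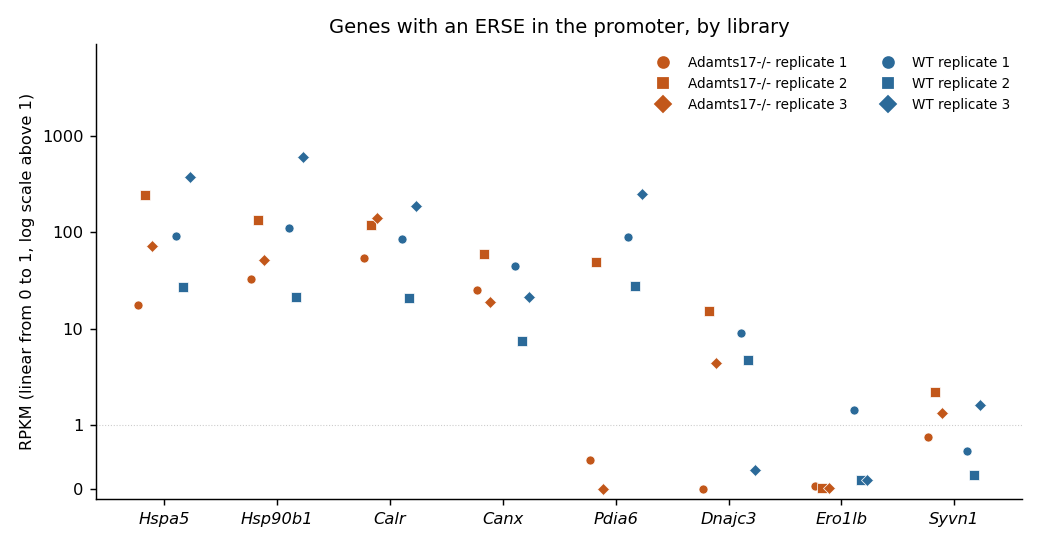
RPKM in each library of the 8 genes whose promoter holds an ERSE. The y axis is linear from 0 to 1 and logarithmic above 1, and each point is 1 library. Hspa5 and Hsp90b1 share their highest library, WT replicate 3, Pdia6 is at 0.458 and 0 in Adamts17-/- replicates 1 and 3, and Ero1lb and Syvn1 stay below 3 RPKM in all 6 libraries.

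The 8 genes with an ERSE did not share a direction. Of these, 7 were tested and Ero1lb, the oxidase that recharges disulfide isomerases, was not. Calr, Canx and Syvn1, the ubiquitin ligase HRD1, had a fold change above 0, and Hspa5, Hsp90b1 and Pdia6 below it, where leaving out 1 library turned the sign of Calr, Canx, Hspa5 and Hsp90b1. Dnajc3, a BiP partner also known as an inhibitor of eIF2-alpha kinases, was at 0, 15.3 and 4.39 RPKM in Adamts17-/- and 8.99, 4.68 and 0.300 RPKM in WT. The log2 fold change of Dnajc3 was also above 0 (0.085 ± 1.56, SE), with overlapping groups. Ero1lb was at 0.0443, 0.0172 and 0.0185 RPKM in Adamts17-/- and 1.43, 0.145 and 0.152 RPKM in WT, with all 3 Adamts17-/- libraries below all 3 WT libraries at levels under the filter. Levels differed widely under a shared motif, with means over the 6 libraries of 160.0 RPKM for Hsp90b1 and 138 RPKM for Hspa5, but 1.13 RPKM for Syvn1 and 0.301 RPKM for Ero1lb.

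Translocation and glycosylation genes had the highest median level of the 5 roles. All 20 were tested, and the median over genes of the mean level was 37.4 RPKM, against 9.87 RPKM for chaperones and folding enzymes and 4.59 RPKM for all genes of the table. Fold changes were above 0 for 11 and below 0 for 9, with a median of 0.21 that turned to -0.048 with upper-quartile scaling, to -0.44 without Adamts17-/- replicate 2 and to 0.56 without WT replicate 1. The small subunits of the SEC61 channel were the most abundant of them. Sec61b was at 338, 493 and 128 RPKM in the Adamts17-/- libraries, against 159, 57.6 and 336 RPKM in the WT libraries (0.92 ± 1.11). Sec61g was at 447, 365 and 8.05 RPKM in the Adamts17-/- libraries, against 66, 214 and 232 RPKM in the WT libraries (-0.39 ± 1.30), with Adamts17-/- replicate 3 far below the other libraries. The pore subunit comes from 2 genes. Sec61a1 was at 0, 52.9 and 18.1 RPKM in the Adamts17-/- libraries, against 28.8, 12.1 and 53.4 RPKM in the WT libraries (-1.46 ± 1.55). The listed 0 was in Adamts17-/- replicate 1, and the groups overlapped. Sec61a2 (Entrez gene 57743, chromosome 2, 5870987 to 5895353, minus strand) was at 1.71, 4.39 and 0.199 RPKM in the Adamts17-/- libraries, against 10.9, 8.60 and 113 RPKM in the WT libraries (-3.18 ± 1.61, unadjusted p = 0.0576, adjusted p = 0.999 by limma). All 3 Adamts17-/- libraries of Sec61a2 lay below all 3 WT libraries, and WT replicate 3 was the highest by far. Without it the fold change of Sec61a2 was -2.04. The channel list of 4 genes had 1 fold change above 0 and 3 below.

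The TRAP complex sits beside the channel and helps some signal sequences to enter. Its subunit Ssr4 was at 83.5, 247 and 159.9 RPKM in the Adamts17-/- libraries, against 105, 150.4 and 459 RPKM in the WT libraries (-0.38 ± 1.11). Ssr4 was detected in every library, with the highest and lowest values in WT replicate 3 and Adamts17-/- replicate 1. Ssr2, another TRAP subunit, was at 10.7, 141 and 14.6 RPKM in the Adamts17-/- libraries, against 52.1, 8.61 and 0 RPKM in the WT libraries (1.89 ± 1.59). It was listed at 0 in WT replicate 3, the library in which Ssr4 was highest. The oligosaccharyltransferase list of 7 genes had 5 fold changes above 0 and 2 below (71.4% above, against 52.8% of all genes). The mean log2(RPKM + 1) of this list was lowest in WT replicate 2, at 0.89, against 3.88 and 4.63 in WT replicates 1 and 3. The split thus leans on that library. Rpn1, a ribophorin subunit of the oligosaccharyltransferase, was at 32.9, 90.0 and 25.4 RPKM in the Adamts17-/- libraries, against 31.7, 0.350 and 41.4 RPKM in the WT libraries (1.81 ± 1.48), and WT replicate 2 alone was under 1 RPKM. Without that library the fold change of Rpn1 was 0.22. Tusc3, a subunit with an oxidoreductase fold, was at 0, 5.13 and 0 RPKM in the Adamts17-/- libraries, against 1.54, 0 and 90.7 RPKM in the WT libraries (-1.75 ± 1.49), and WT replicate 3 alone held most of its signal.

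Degradation genes, 51 of which 41 were tested, had 21 fold changes above 0 and 20 below, with a median of 0.069 (-0.145 with upper-quartile scaling, -0.44 without Adamts17-/- replicate 2 and 0.28 without Adamts17-/- replicate 3). The HRD1 complex ubiquitinates misfolded proteins at the ER membrane. Its ligase Syvn1 was at 0.812, 2.22 and 1.34 RPKM in the Adamts17-/- libraries, against 0.598, 0.224 and 1.60 RPKM in the WT libraries (0.48 ± 0.80). Sel1l, the adaptor of HRD1, was at 69.3, 24.4 and 26.6 RPKM in the Adamts17-/- libraries, against 36.7, 68.9 and 12.8 RPKM in the WT libraries (0.15 ± 1.32, with the sign turned by upper-quartile scaling and quantile normalization). Derl1, a channel protein for retrotranslocation, was at 0.354, 28.7 and 0.249 RPKM in the Adamts17-/- libraries, against 27.7, 2.43 and 51.4 RPKM in the WT libraries (-2.23 ± 1.69). Derl1 was high in Adamts17-/- replicate 2 and WT replicates 1 and 3, and low in the remaining libraries of both groups. Erlec1, a lectin that recognises trimmed glycans, was the most abundant of the class, at 207, 21.6 and 254 RPKM in the Adamts17-/- libraries, against 56.9, 313 and 131 RPKM in the WT libraries (-0.33 ± 1.22). The sign of Erlec1 turned without Adamts17-/- replicate 2, its lowest library, and also without WT replicate 2, its highest. Vcp, the ATPase that pulls proteins out of the membrane, was among the most even genes, at 95.9, 104 and 61.5 RPKM in the Adamts17-/- libraries, against 54.6, 82.0 and 119 RPKM in the WT libraries (0.069 ± 1.17, with the sign turned by upper-quartile scaling and quantile normalization). The highest and the lowest library of Vcp were both WT.

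Several cytosolic ubiquitin ligases belong to the same step. Cul1, the scaffold of SCF ligases, was at 11.4, 10.4 and 0 RPKM in the Adamts17-/- libraries, against 22.2, 14.1 and 54.4 RPKM in the WT libraries (-2.37 ± 1.54), with all 3 Adamts17-/- libraries below all 3 WT libraries. Without Adamts17-/- replicate 3, where it was listed at 0, the fold change of Cul1 was -1.18. Rbx1, the RING subunit of the same ligases, was at 31.2, 234 and 87.5 RPKM in the Adamts17-/- libraries, against 40.6, 23.6 and 164 RPKM in the WT libraries (0.66 ± 1.26), and its groups overlapped. Park2, which encodes the ligase parkin, was at 0.0342, 0.484 and 74.6 RPKM in the Adamts17-/- libraries, against 28.4, 31.4 and 19.5 RPKM in the WT libraries (-2.46 ± 1.63). Adamts17-/- replicate 3 was its highest library and the other Adamts17-/- libraries were under 0.5 RPKM. Stub1, the ligase CHIP that ubiquitinates clients of HSP70, was at 71.0, 58.2 and 22.5 RPKM in the Adamts17-/- libraries, against 14.9, 22.1 and 11.2 RPKM in the WT libraries (1.497 ± 1.33), and Os9, a lectin of the HRD1 complex, at 11.1, 44.4 and 7.02 RPKM in the Adamts17-/- libraries, against 4.65, 2.08 and 3.65 RPKM in the WT libraries (1.92 ± 1.56). For Stub1 the lowest Adamts17-/- library, 22.5 RPKM, and the highest WT library, 22.1 RPKM, nearly met, and without Adamts17-/- replicate 2 the fold change of Os9 was 1.18. Dnajb2, a J-domain protein that passes clients to the proteasome, was at 51.4, 75.7 and 1.96 RPKM in the Adamts17-/- libraries, against 5.83, 0.417 and 2.23 RPKM in the WT libraries (2.86 ± 1.64, unadjusted p = 0.0906, adjusted p = 0.999 by limma). Adamts17-/- replicates 1 and 2 lay above all WT libraries and replicate 3 inside their range, without which the fold change of Dnajb2 was 4.33. Ngly1, which strips N-glycans from retrotranslocated proteins, was at 5.40, 0.863 and 26.7 RPKM in the Adamts17-/- libraries, against 3.64, 0 and 0.0503 RPKM in the WT libraries (2.03 ± 1.38). Herpud1, the scaffold whose promoter holds an ERSE-II, was at 0.0650, 2.55 and 0.419 RPKM in Adamts17-/- and 10.5, 15 and 0 RPKM in WT. Its highest values were in WT replicates 1 and 2, and WT replicate 3 was listed at 0.

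Genes of exit to the Golgi, 13 of which 12 were tested, had 8 fold changes above 0 and 4 below, with a median of 0.34 that was -0.030 with upper-quartile scaling, -0.083 without WT replicate 2 and 0.67 without Adamts17-/- replicate 1. COPII coats assemble when the GTPase SAR1 recruits SEC23-SEC24 and then SEC13-SEC31. Sar1a was at 35.9, 30.8 and 34.9 RPKM in the Adamts17-/- libraries, against 59.2, 87.8 and 67.3 RPKM in the WT libraries (-1.04 ± 1.23). The Adamts17-/- libraries of Sar1a lay close to each other and all below the WT libraries, so leaving out 1 library could not turn its sign. The fold change of Sar1a then lay between -1.16 and -0.88. Its paralog Sar1b was at 4.71, 6.85 and 32.5 RPKM in Adamts17-/- and 28.8, 8.13 and 0 RPKM in WT, with overlapping groups. Preb, the exchange factor that loads SAR1, was at 21.6, 26.4 and 7.97 RPKM in the Adamts17-/- libraries, against 12.3, 0.225 and 4.4 RPKM in the WT libraries (1.99 ± 1.57). Sec13, the outer coat subunit shared with the nuclear pore, was at 39.7, 144 and 81.9 RPKM in the Adamts17-/- libraries, against 12.4, 10.8 and 63.7 RPKM in the WT libraries (1.86 ± 1.30). The highest 2 libraries of Sec13 were Adamts17-/- replicates 2 and 3, and Adamts17-/- replicate 1 lay inside the WT range.

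Inner coat subunits come as paralogs. Loss of SEC23A in humans and of sec23a and sec24d in zebrafish is known to disturb cartilage and craniofacial development. Sec23a was at 4.59, 9.40 and 0.172 RPKM in the Adamts17-/- libraries, against 11.3, 0.0620 and 23.0 RPKM in the WT libraries (-0.73 ± 1.65). Sec23b was at 0.668, 21.6 and 26.1 RPKM in Adamts17-/- and 9.37, 0.218 and 4.67 RPKM in WT, and both paralogs overlapped between groups. Sec24d was at 16.4, 3.34 and 6.57 RPKM in the Adamts17-/- libraries, against 5.63, 0.165 and 56.7 RPKM in the WT libraries (0.12 ± 1.66, with the sign turned by upper-quartile scaling). WT replicates 2 and 3 were its lowest and highest libraries. Sec24c was at 0.431, 0.317 and 4.17 RPKM in the Adamts17-/- libraries, against 7.87, 5.78 and 30.6 RPKM in the WT libraries (-2.54 ± 1.57, unadjusted p = 0.117, adjusted p = 0.999 by limma), with all 3 Adamts17-/- libraries below all 3 WT libraries. Mean levels of the cargo-binding paralogs, per length, were 14.8 RPKM for Sec24d, 8.2 for Sec24c, 2.45 for Sec24b and 1.40 for Sec24a, an order in which the library ranges of neighbours overlapped. The promoters of Sec23a and Sec24d each hold a UPRE, shown here with the motif in capitals as before.
Sec23a (chr12:59011994-59012021, minus strand): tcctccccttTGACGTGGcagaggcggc
Sec24d (chr3:123267460-123267487, plus strand): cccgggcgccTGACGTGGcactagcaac

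**Figure D5:**
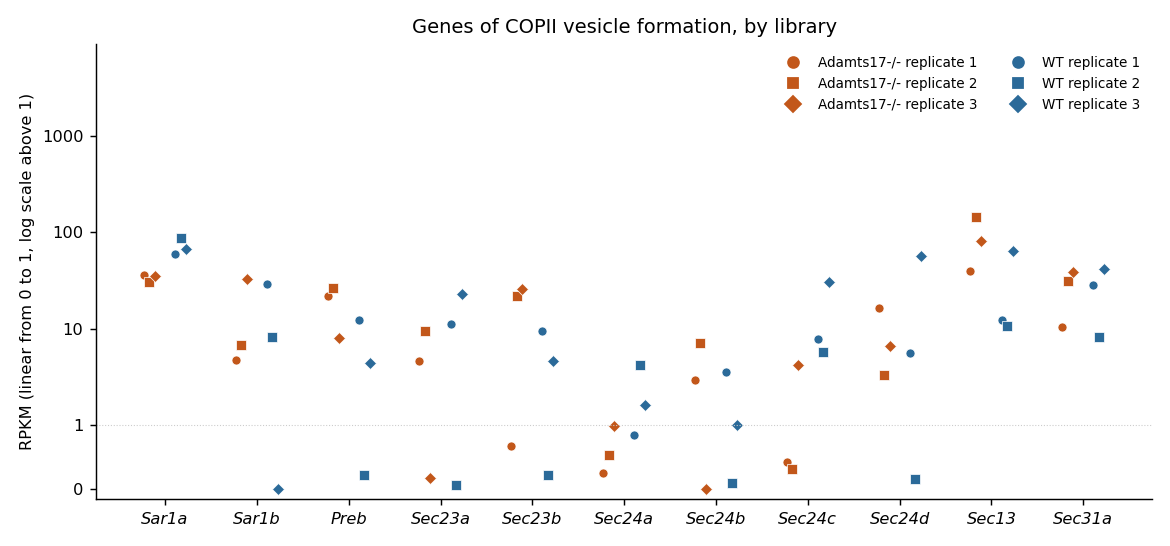
RPKM in each library of the genes of COPII vesicle formation. The y axis is linear from 0 to 1 and logarithmic above 1, and each point is 1 library. For Sar1a and Sec24c all 3 Adamts17-/- libraries lie below all 3 WT libraries, and the other genes named in the text overlap between groups.

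Stress sensors and their effectors, 25 genes of which 17 were tested, had 9 fold changes above 0 and 8 below, with a median of 0.026 (-0.13 with upper-quartile scaling, -0.46 without WT replicate 3 and 0.51 without Adamts17-/- replicate 1). The table's set holds PERK and the ATF6 relatives but not the IRE1 gene Ern1, which is not analysed here. Eif2ak3, which encodes PERK, was at 0, 1.52 and 1.39 RPKM in the Adamts17-/- libraries, against 2.42, 2.89 and 0 RPKM in the WT libraries (-0.38 ± 0.85, with the sign turned by quantile normalization), and each group held a 0. Atf6 did not reach the filter, at 0, 0.132 and 0.257 RPKM in Adamts17-/- and 3.48, 0.0240 and 18.7 RPKM in WT. Its relative Atf6b (Entrez gene 12915, chromosome 17, 34647146 to 34655074, plus strand) was at 4.17, 2.23 and 7.94 RPKM in the Adamts17-/- libraries, against 0, 0 and 0 RPKM in the WT libraries. Atf6b was thus detected in every Adamts17-/- library and listed at 0 in every WT library, although its highest value was 7.94 RPKM. On the log2 scale the difference was 2.41 ± 0.91 (limma, SE; 3 libraries per group; adjusted p = 0.999, unadjusted p = 0.013). Since only the Adamts17-/- libraries took Atf6b over the filter of 1 RPKM, the filter itself selected this difference, and the value is a description. The size of this value depends on the pseudocount, 5.43 with 0.1 and 1.08 with 4, and gives no fold, since all WT libraries are listed at 0. Mbtps1, the Golgi protease that cuts ATF6, averaged 8.32 RPKM over the 6 libraries.

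The transcription factors downstream were more abundant. Atf4, which is translated when PERK acts, was at 71.5, 192 and 64.4 RPKM in the Adamts17-/- libraries, against 67.2, 38.3 and 119 RPKM in the WT libraries (0.50 ± 1.19), with the highest library in Adamts17-/- and the lowest in WT. Xbp1, whose messenger RNA is spliced by IRE1, was at 12.6, 141 and 0 RPKM in the Adamts17-/- libraries, against 38.8, 19.3 and 68.8 RPKM in the WT libraries (-1.62 ± 1.56), with both the highest library and the single 0 in Adamts17-/-. Without that 0, in replicate 3, the fold change of Xbp1 was 0.19. The table gives 1 value per gene, so spliced and unspliced Xbp1 were not separated. Ddit3, which encodes CHOP, was at 73.8, 29.9 and 62.9 RPKM in the Adamts17-/- libraries, against 18.9, 92.1 and 0 RPKM in the WT libraries (2.11 ± 1.505). WT replicate 2 was its highest library and WT replicate 3 was listed at 0, so the groups overlapped, and without WT replicate 3 the fold change was 0.30. Bax, a pore-forming protein of apoptosis, was at 3.36, 34.0 and 0 RPKM in the Adamts17-/- libraries, against 9.46, 39.5 and 88.7 RPKM in the WT libraries (-2.65 ± 1.57). Traf2, an adaptor that binds IRE1, was at 9.59, 14.8 and 4.88 RPKM in the Adamts17-/- libraries, against 5.26, 0 and 3.81 RPKM in the WT libraries (1.68 ± 1.59). The highest 2 libraries of Traf2 were Adamts17-/- replicates 1 and 2, and the lowest was WT replicate 2.

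The 28 genes outside the test were low or seen in few libraries. They were 9 chaperones and folding enzymes, 10 degradation genes, 1 gene of exit (Sec24a) and 8 of the stress class. The highest mean over the 6 libraries among them was 15.5 RPKM for Bcap31, an ER cargo receptor of degradation and export, with 0, 54.2 and 0 RPKM in Adamts17-/- and 39.0, 0 and 0 RPKM in WT. Ppp1r15a, the phosphatase subunit that ends PERK signalling, was at 0.439, 45.4 and 0 RPKM in Adamts17-/- and 2.10, 0 and 0 RPKM in WT, so nearly all of its signal came from Adamts17-/- replicate 2. Wfs1, an ER membrane glycoprotein, was at 0.0248, 0.0267 and 0 RPKM in Adamts17-/- and 9.52, 1.11 and 0.289 RPKM in WT. No count over these genes was read as a result, since the filter acts on the same values.

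Other genes of the ER are not in the KEGG set. Of 50 such genes listed by function 48 were in the table and 42 were tested, with 20 fold changes above 0, 22 below and a median of -0.096. That median was -0.44 without Adamts17-/- replicate 2, 0.28 without Adamts17-/- replicate 3 and -0.60 with library weights. None was called (adjusted p at least 0.999 by limma), and 3 had an unadjusted p under 0.05, all below 0 (7.14%, against the background of 2.51%, or 1.37% in that direction). Kdelr3, a receptor that returns escaped ER proteins, was at 0.723, 8.43 and 0 RPKM in the Adamts17-/- libraries, against 18.6, 65.7 and 61.1 RPKM in the WT libraries (-4.10 ± 1.54, unadjusted p = 0.0124). All 3 Adamts17-/- libraries of Kdelr3 lay below all 3 WT libraries, while its paralogs Kdelr1 and Kdelr2 averaged 40.4 and 56.4 RPKM over the 6 libraries with overlapping groups. Sec11c, a catalytic subunit of signal peptidase, was at 1.26, 165 and 0 RPKM in the Adamts17-/- libraries, against 85.4, 24.8 and 359 RPKM in the WT libraries (-3.69 ± 1.61, unadjusted p = 0.0289), and Adamts17-/- replicate 2 lay inside the WT range. The fold change of Sec11c was -5.95 without that library and -2.26 without Adamts17-/- replicate 3. Sdf2l1, an ER chaperone partner named here after its value was seen, was at 11.9, 0 and 0 RPKM in Adamts17-/- and 18.4, 51.8 and 13.8 RPKM in WT (unadjusted p = 0.0443). Sec22b, a membrane fusion protein of ER to Golgi traffic, was at 35.2, 125 and 151 RPKM in the Adamts17-/- libraries, against 20.4, 22.3 and 19.3 RPKM in the WT libraries (2.03 ± 1.27), with all 3 Adamts17-/- libraries above all 3 WT libraries. Atf3, a stress-induced transcription factor, was at 20.7, 0.289 and 5.55 RPKM in the Adamts17-/- libraries, against 3.72, 0.644 and 0 RPKM in the WT libraries (1.52 ± 1.36). Kdelr3, Sec11c, Sec22b and Atf3 were named by the 2 smallest p per direction among the 42 genes, with the same minimum mean as for the members. For Sec22b and Atf3 the unadjusted p was 0.12 and 0.272 by limma.

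The ER protein processing genes also serve in other annotated pathways. Of the 150 genes, 73 had no other pathway in the table. Ubiquitin mediated proteolysis held 17 of them, which were 13.3% of that pathway's 128 genes, and N-glycan biosynthesis held 13, or 30.2% of its 43 genes. Antigen processing and presentation held 8, or 17.8% of its 45 genes.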

How the data were processed

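The authors deposited 1 table of expression values, read here as RPKM because each value times transcript length fell on multiples, or on parts down to 1 in 20, of a step for each library. Per the name of the deposited table, values were scaled by trimmed means of M-values. No source used here names the aligner, the counting program or the genome build. No count model was fitted, since many values were parts of a read.

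Genes were divided into 5 roles by textbook function (Ube2e1 and Ube2e2 after the files were seen). Members and lists were chosen with earlier results of these data known. Groups came from sample titles, and columns were matched by sample descriptions. Genes with at least 1 RPKM in at least 3 libraries were fitted on log2(RPKM + 1) with limma (version 3.58.1, R 4.3.3; two-sided, empirical Bayes with intensity trend) and adjusted by Benjamini-Hochberg over all 9128 genes at a threshold of 0.05. Genes were named by a fixed list of 22, of which 21 are members, by the 2 smallest p per direction and role with a mean of at least 5 RPKM in the higher group, and by the 2 highest levels per role. Further genes named for their motif, paralogs or values were added after the data were seen. Lists were described without a test. In all, 16 alternative fits were run. Of the 150 genes 137 had a start within 1000 bases of RefSeq's in GRCm38.p6. Python 3.11.15, pandas 2.3.3, numpy 2.4.6 and matplotlib 3.10.9 were also used.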

Additional observations from a re-analysis of the deposited data

How the results depend on the processing

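Across 16 alternative fits, 0 ER protein processing genes were called in all 16, with 1 to 8 of them at an unadjusted p under 0.05. Among all genes of the table, 1 was called with library weights and 0 to 5 with 1 library left out (5 without Adamts17-/- replicate 3), and 0 in the remaining fits, with 135 to 799 genes at an unadjusted p under 0.05. The median log2 fold change of the ER genes ran from -0.46 with library weights to 0.30 without Adamts17-/- replicate 1. These medians, and those of the roles, are not set beside the median of all genes in the same fit. Library weights moved the median of chaperones to -0.60, of exit genes to -0.52 and of stress genes to -0.53, and leaving out both WT replicate 1 and Adamts17-/- replicate 2 moved that of degradation genes to -0.6955. A replicate block on the titles' numbers left 0 genes called and the ER median at 0.12. The deviations of same-numbered libraries from their group means had correlations of -0.008, -0.35 and -0.10. With 3 libraries per group such values cannot exclude pairs, and the main fit uses none. Of 50 genes followed, 30 kept their sign in every fit that tested them. Not every fit did: Atf6b, for one, was under the filter without any one of the Adamts17-/- libraries. Many of the 50 were named by a small p or after their values were seen, which favours a kept sign. The count of 30 therefore gives no support for steady fold changes. The sign turned for Hyou1 with a pseudocount of 0.1 (-0.035) and for Sec24d with 4 (-0.206). Quantile normalization gave -0.241 for Sel1l, -0.26 for Vcp, -0.257 for Hspa8 and 0.078 for Eif2ak3. Upper-quartile scaling gave -0.030 for Sec24d, -0.0665 for Sel1l, -0.1545 for Vcp and -0.085 for Hspa8. Library weights gave -0.3365 for Canx, -0.16 for Hyou1, -0.043 for Man1c1, -0.70 for Ssr2, 0.95 for Sec61g and 0.98 for Erlec1. Leaving out both doubted libraries gave -0.36 for Vcp, -0.30 for Hspa8, 0.18 for Erlec1 and -0.26 for Rbx1. With 1 library left out, the log2 fold change ran from -0.21 to 0.34 for Vcp, -0.34 to 0.86 for Hspa8, -1.43 to 0.43 for Hspa5, -2.67 to 0.21 for Sec61a1, -0.82 to 0.24 for Ssr4, -1.24 to 1.58 for Sec24d, -0.49 to 0.68 for Sel1l, -1.003 to 0.052 for Eif2ak3, -0.37 to 1.18 for Calr, -0.012 to 1.21 for Canx, -0.88 to 0.58 for Hyou1, -0.97 to 0.78 for Erlec1, -0.053 to 1.45 for Rbx1, -2.07 to 0.32 for Hsp90b1, -1.92 to 0.56 for Pdia3, -2.07 to 0.18 for Sec23a, -3.38 to 0.19 for Xbp1 and -1.38 to 1.44 for Sec61g. The causes were not tested. Depth limits low genes most, since a value near 1 RPKM rests on few reads in the shallow libraries.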
